A study of Mus musculus with 22 samples.

Results

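Transcript levels of 36 genes of the DNA damage response and DNA repair were examined in sorted lung tumour cells and in normal mouse lung. The genes were taken by symbol from a fixed list that covers damage signalling, the repair of broken DNA ends, interstrand crosslink repair, mismatch repair and excision repair. A probe set was found for 34 of the 36 genes, out of 18193 genes with a probe set on the arrays, and 1 probe set stood for each gene. It was chosen for its highest mean over all arrays, avoiding the _x_at type, which can cross-hybridize, where another was present. Sets of the _s_at type were not avoided, and those chosen for Chek1 and Ercc1 were of that type. Rbbp8 and Xrcc2 were not analysed here.

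The sorted cells came from A2C12, a line grown from a lung tumour of a mouse with c-myc and c-raf transgenes on a C57BL/6 background. They were the side population, the fraction of viable cells that keeps out the DNA dye Hoechst and is collected by flow cytometry. The groups were 3 arrays of untreated side population cells, 3 arrays of side population cells after exposure to an anti-EpCAM monoclonal antibody (100 µg/ml, given 48 h before the sort), and lung tissue of C57BL/6 mice without transgenes, 8 arrays labelled male and 8 labelled female. All 6 cell arrays are of a single line, so the spread between them does not measure the spread between tumours, and no unsorted A2C12 cells were analysed here. The labels give no age for the mice and no promoter for the transgenes, and they call the samples of a group biological replicates.

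DNA repair is carried out by several pathways. Breaks through both strands are sensed by the Mre11, Rad50 and Nbn complex. The kinases Atm and Atr signal them to the checkpoint kinases Chek1 and Chek2. Repair is either by joining the ends, which the kinase Prkdc directs, or by homologous recombination. The latter copies the sister chromatid with the help of Brca1, Palb2 and Brca2. Recombination takes place mainly in the S and G2 phases, and many of its genes, like those of DNA replication, are transcribed under E2F factors in dividing cells, whereas most cells of adult lung are not dividing. Nucleotide excision repair, which cuts out bulky lesions such as those made by tobacco smoke components and ultraviolet light, and end joining operate throughout the cell cycle.

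Promoter sequence was examined as a feature that played no part in choosing the genes. RefSeq promoter windows of build GRCm38.p6, 300 bases long with 250 before and 50 after the annotated start, matched 26 of the 34 genes. The letters TTTCCCGC, TTTCGCGC, TTTGCCGC and TTTGGCGC, 4 forms of the E2F consensus, were searched on both strands, as were CCAAT, the core of the box bound by NF-Y, and TTTGAA, the letters of the CHR element of mitotic genes. An E2F match was present in 6 of the 26 windows (23.1%), those of Bard1, Brca2, Chek2, Fancg, Msh6 and Xrcc6, against 3.8% of the 14368 array genes with a window and 2.26% of all 32851 windows. A CCAAT match was present in 17 of 26 (65.4%), against 42% of array genes and 37.4% of all windows, and a TTTGAA match in 1 of 26 (3.85%), against 15.7% and 17.9%. No E2F match overlapped a CCAAT match. A match describes the letters in this window only.

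The 200 bases before the start are printed for 6 genes, read 5′ to 3′ along the strand of the gene, to show what the windows held for genes that differed in their change against lung. Capitals mark matches to the E2F letters (TTTCCCGC, or GCGGGAAA where it lies on the other strand) and to CCAAT, which reads ATTGG where it lies on the other strand. Brca2 and Xrcc6 hold an E2F match and were higher in the cells. Chek2 holds an E2F match and CCAAT matches and did not reach the call. Fancg, which also holds an E2F match there and was not called, is not printed. Rad51ap1 and Brca1 hold a CCAAT match, and Chek1 holds neither, and all of these were higher.
Brca2 (chr5:150522421-150522620, plus strand): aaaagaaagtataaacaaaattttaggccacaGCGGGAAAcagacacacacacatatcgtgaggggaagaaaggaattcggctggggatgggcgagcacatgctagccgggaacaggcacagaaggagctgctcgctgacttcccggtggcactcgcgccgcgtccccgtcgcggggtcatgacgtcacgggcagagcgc
Xrcc6 (chr15:82016169-82016368, plus strand): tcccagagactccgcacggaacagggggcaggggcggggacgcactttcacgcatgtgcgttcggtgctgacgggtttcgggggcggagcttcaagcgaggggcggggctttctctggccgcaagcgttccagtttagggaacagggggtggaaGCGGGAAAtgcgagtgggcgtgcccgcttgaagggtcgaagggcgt
Chek2 (chr5:110839783-110839982, plus strand): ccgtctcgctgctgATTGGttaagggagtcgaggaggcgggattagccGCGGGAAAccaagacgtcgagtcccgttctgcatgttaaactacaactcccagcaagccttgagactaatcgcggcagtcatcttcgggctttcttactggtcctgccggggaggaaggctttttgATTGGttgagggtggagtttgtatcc
Rad51ap1 (chr6:126939588-126939787, minus strand): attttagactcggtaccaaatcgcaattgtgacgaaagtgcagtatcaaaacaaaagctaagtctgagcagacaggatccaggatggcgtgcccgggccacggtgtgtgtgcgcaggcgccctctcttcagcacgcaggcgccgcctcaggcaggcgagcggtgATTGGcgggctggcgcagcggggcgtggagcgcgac
Brca1 (chr11:101551956-101552155, minus strand): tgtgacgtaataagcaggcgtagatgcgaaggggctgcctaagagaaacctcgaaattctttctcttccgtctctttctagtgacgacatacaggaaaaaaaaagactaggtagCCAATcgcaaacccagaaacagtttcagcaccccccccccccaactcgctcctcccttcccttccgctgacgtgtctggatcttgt
Chek1 (chr9:36726659-36726858, minus strand): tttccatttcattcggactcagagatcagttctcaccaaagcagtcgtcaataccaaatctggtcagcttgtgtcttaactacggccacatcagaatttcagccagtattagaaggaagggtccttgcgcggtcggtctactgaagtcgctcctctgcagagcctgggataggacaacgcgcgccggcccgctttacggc

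Among the 12 genes with a window that were higher in untreated cells than in lung, 3 held an E2F match (25%) and 10 a CCAAT match (83.3%). Among the other 14 genes with a window the numbers were 3 (21.4%) and 7 (50%). These 14 include Bard1, which holds an E2F match and was at background in every group, so it was not tested against lung. These shares are descriptions of small numbers and were not tested.

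Values below are probe set intensities as deposited, given per array or as mean ± SD. Log2 changes are given with standard errors (SE) on the quantile normalized scale of log2(intensity + 16). Adjusted p come from limma, with Benjamini-Hochberg adjustment over all genes tested. A gene was called against lung at an adjusted p under 0.05 with a change of at least 2-fold. Because the offset of 16 shrinks the change of a gene that is near background in lung, and because probe sets differ in their response, no level is compared between genes.

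The comparison of untreated cells with lung asked how the sorted tumour fraction differed from the normal tissue. Of the 32 genes that passed the intensity filter, 14 were higher in the cells, 0 were lower and 18 were not called. Over all 15197 genes tested, 17.8% were higher and 23.8% were lower. The 14 genes were Rad51ap1, Chek1, Brca1, Xrcc6, Rad54l, Fancd2, Exo1, Brca2, Blm, Msh6, Brip1, Xrcc1, Palb2 and Xrcc5. Of these, 7 (Chek1, Exo1, Blm, Brca1, Brip1, Rad51ap1 and Rad54l) passed the filter only through the cell arrays, so they could enter only as genes high in the cells. Of the 25 genes that passed through lung as well, 7 were higher, with a median change over the 25 of 0.6. The median change of the 32 genes was 0.78, against 0.01 for all genes tested, and the single values ran from -0.98 to 4.09. Besides the 14, a further 12 genes had an adjusted p under 0.05 with a change below 2-fold. Small p were common in this comparison. At an unadjusted limma p under 0.05 there were 27 of the 32 genes, against 12578 of all 15197. Without untreated 1, 2 or 3 the filter left 26 of the genes, of which 9, 7 and 7 were higher, and with the same 32 genes kept 15, 13 and 13 were.

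**Figure D1:**
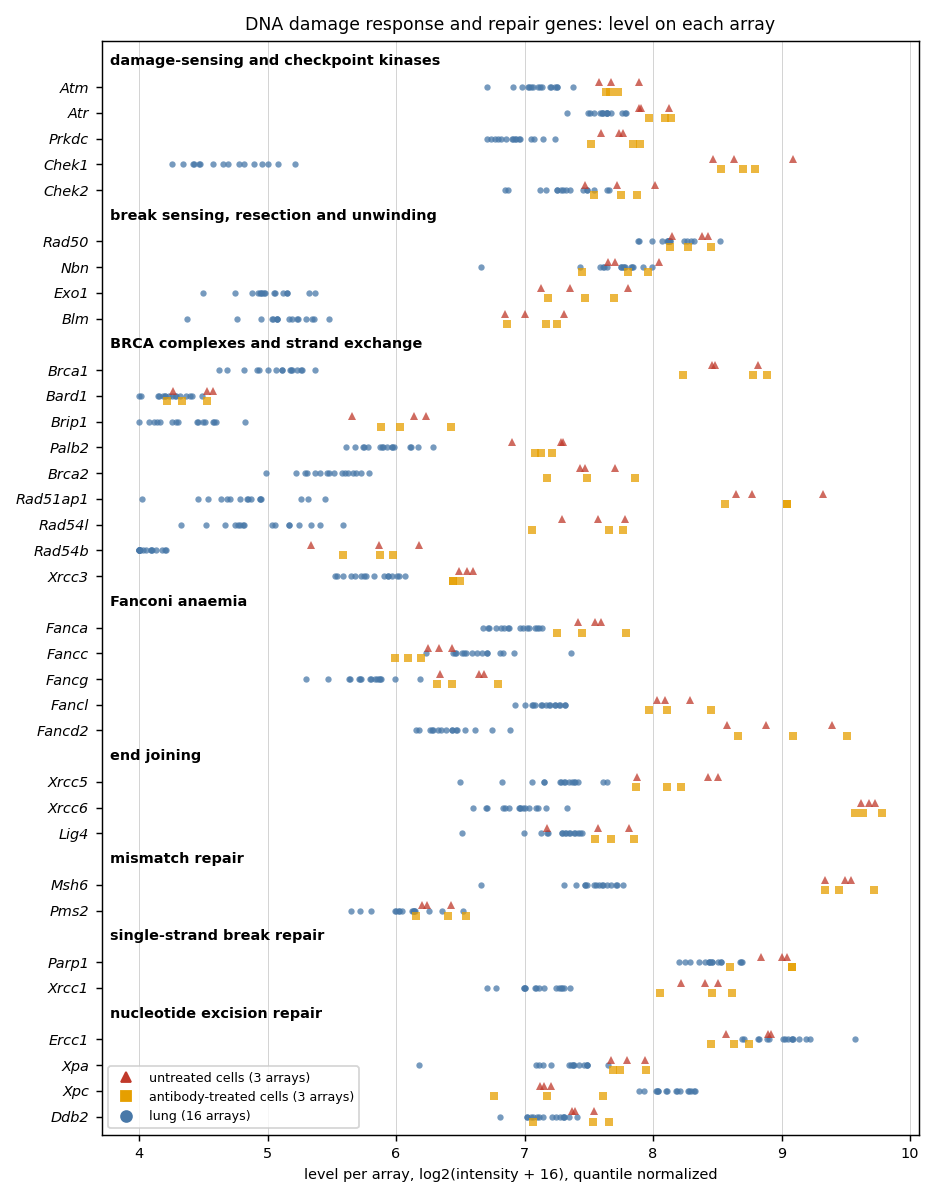
Level of each of the 34 genes on each of the 22 arrays, as log2(intensity + 16) after quantile normalization, grouped by role, with 3 untreated (triangles), 3 antibody-treated (squares) and 16 lung arrays (circles). The untreated arrays lie above all lung arrays for genes such as Rad51ap1 and Chek1, overlap them for genes such as Rad50 and Nbn, and lie below them for Xpc. Positions of different genes along the axis are not comparable.

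Of the 5 damage-sensing and checkpoint kinases, 1 was higher. Chek1, the effector kinase that acts below Atr when replication forks stall (Entrez gene 12649), read 315, 353 and 501 on the untreated arrays. On the 16 lung arrays it read 3.68 at the lowest, 9.68 at the median and 23.3 at the highest. The untreated and lung arrays were far apart, and lung was near background throughout. The log2 change was 4.04 ± 0.17 (SE; limma adjusted p = 2.19e-16). It was 5.33 with an offset of 1 and 2.67 with an offset of 64.

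The other 4 kinases differed far less from lung. Atm read 167, 154 and 191 on untreated arrays and 90.9 at the lowest and 161 at the highest in lung, with a lung mean of 130.4 ± 16.8 (SD, n = 16) and a change of 0.61. A second Atm probe set went the other way, with 86.3 ± 16.2 (SD, n = 3) against 144 ± 26.2 (SD, n = 16) and a change of -0.32 (limma adjusted p = 0.0383). Prkdc, the catalytic subunit of the kinase that directs end joining, had a change of 0.78, Atr of 0.36, and Chek2, the effector kinase below Atm, of 0.42. These 4 had limma adjusted p from 4.64e-07 to 0.00952 and stayed below 2-fold. On the normalized scale the untreated arrays of the chosen probe sets of Atm, Atr and Prkdc lay above all lung arrays, while those of Chek2 overlapped them.

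Among the 4 measured genes of break sensing, end resection and unwinding, the 2 that act on DNA ends and strands during recombination were higher and the 2 sensors were not called. Exo1, the exonuclease that resects ends (Entrez gene 26909), read 126, 106 and 179 on untreated arrays against 6.42, 16.9 and 25.4 (lowest, median, highest) in lung. Its change was 2.43 ± 0.15 (SE; adjusted p = 2.38e-13). Blm, the helicase mutated in Bloom syndrome (Entrez gene 12144), read 93.1, 83.3 and 119 against 4.75, 20.2 and 30.2 in lung, a change of 1.95 ± 0.14 (SE; adjusted p = 7.3e-12). Neither gene had a lung array that reached the lowest untreated array, and both passed the filter only through the cell arrays.

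Rad50 and Nbn, which with Mre11 form the sensor complex at broken ends, overlapped lung on the arrays. Rad50 read 277 ± 28 (SD, n = 3) in untreated cells against 279 ± 30 (SD, n = 16), with a change of 0.17 (adjusted p = 0.142). Nbn read 184 ± 29.1 (SD, n = 3) and 204 ± 43.5 (SD, n = 16), with a change of 0.12 (adjusted p = 0.514). Their deposited means were below those of lung and their normalized changes were above 0, so neither has a settled direction.

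The group of BRCA complexes and strand exchange had the most genes called, 6 of 7 tested. Of these, Brca1, Brip1, Rad51ap1 and Rad54l passed the filter only through the cell arrays, so the filter set part of this count. Rad51ap1, which aids the pairing of DNA strands (Entrez gene 19362), had the largest change of the 32 genes with Chek1, and the order of these genes depended on the offset. It read 367, 398 and 598 on the untreated arrays, and 0.51, 13.5 and 29.3 (lowest, median, highest) in lung, a change of 4.09 ± 0.20 (SE; adjusted p = 4.9e-15). The change was 5.28 with an offset of 1 and 2.79 with an offset of 64. At the other end of the called genes of this group, Palb2, which links Brca1 to Brca2 (Entrez gene 233826), read 85, 123 and 116 against 35.5, 46.5 and 61.3 in lung. Its change was 1.24 ± 0.12 (SE; adjusted p = 2.35e-09), and it fell short of 2-fold without normalization (0.95).

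Brca1, the ubiquitin ligase and recombination mediator, lay between them, with 344 ± 50.3 (SD, n = 3) in untreated cells against 18.8 ± 5.19 (SD, n = 16) and a change of 3.53 ± 0.15 (SE; adjusted p = 1.57e-16). A second probe set of Brca1 rose by 2.04 (adjusted p = 2.26e-10). Rad54l, a DNA motor protein of recombination, changed by 2.58, Brca2, a mediator of strand exchange, by 2.05, and Brip1, the helicase partner of Brca1, by 1.64. Xrcc3, which also serves recombination, read 63.8 ± 3.59 (SD, n = 3) against 43 ± 7.53 (SD, n = 16) and did not reach 2-fold (0.74). Its other set, of the _x_at type, read 27.1 ± 8.8 (SD, n = 3) against 2.24 ± 2.51 (SD, n = 16) and did not pass the filter. With the mean of its probe sets the change was 1.08, and Xrcc3 was called.

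Both remaining genes of this group were below the filter in untreated cells. Bard1, the obligate partner of Brca1 in its ubiquitin ligase, was at background in every group, with 4.88 ± 2.45 (SD, n = 3) in untreated cells, 3.73 ± 2.04 (SD, n = 3) in antibody-treated cells and 3.35 ± 1.86 (SD, n = 16) in lung. That reading is of its highest probe set and gives no level for the gene. Rad54b, a relative of Rad54l, read 20.5, 36.1 and 45.9 on untreated arrays, of which 2 passed the filter, and at most 3.16 on the 16 lung arrays.

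Of the 5 genes grouped here under Fanconi anaemia, a disorder of interstrand crosslink repair, 1 was higher. Fancd2, which is ubiquitinated at stalled forks (Entrez gene 211651), read 346, 430.4 and 628 on untreated arrays against 59.7, 74.4 and 96.6 (lowest, median, highest) in lung. The change was 2.52 ± 0.16 (SE; adjusted p = 6.06e-13), and a second probe set rose by 1.58 (adjusted p = 3.33e-11). The 4 genes of the core complex that ubiquitinates it were not called. Fancl, its ligase subunit, was at 0.98 ± 0.10 (SE; adjusted p = 3.89e-09), just under 2-fold, and the subunits Fancg and Fanca were at 0.79 and 0.60. Fancc, another subunit, was at -0.31 (adjusted p = 0.0525).

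In end joining, both subunits of the Ku ring that clamps onto broken ends were higher, by unlike amounts. Xrcc6, which encodes Ku70 (Entrez gene 14375), read 797, 776 and 811 on untreated arrays against 79.5, 119.6 and 140.3 (lowest, median, highest) in lung. Its change was 2.73 ± 0.11 (SE; adjusted p = 1.4e-16), and its 3 untreated arrays were close together. Xrcc5, which encodes Ku80 (Entrez gene 22596), read 197, 303 and 313 against 73.6, 155 and 188, a change of 1.02 ± 0.17 (SE; adjusted p = 8.73e-06). The lowest untreated array of Xrcc5 was close to the highest lung array. The Xrcc5 change lay at the 2-fold limit and fell below it without lung male 2 (0.96), untreated 2 (0.94) or untreated 3 (0.90). Lig4, the ligase that seals the ends, was not called, with 148 ± 35 (SD, n = 3) against 147 ± 25.6 (SD, n = 16) and a change of 0.27 (adjusted p = 0.0865).

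Of the 2 mismatch repair genes, 1 was higher. Msh6, which recognises mismatched bases (Entrez gene 17688), read 642, 683 and 699.7 on untreated arrays against 82.9, 179 and 229.9 (lowest, median, highest) in lung. The untreated arrays were far above every lung array, and the change was 1.94 ± 0.14 (SE; adjusted p = 8.99e-12). Pms2, the endonuclease subunit that acts after recognition, read 47.3, 49.8 and 57 on untreated arrays against 37, 56.3 and 84 in lung, and the arrays overlapped. Its chosen probe set was at 0.22 (adjusted p = 0.139), and its other sets were at -0.74 (adjusted p = 1.32e-06) and 0.62 (adjusted p = 1.3e-05).

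Of the genes of single-strand break repair, the scaffold was called and the sensor was not. Xrcc1, the scaffold (Entrez gene 22594), read 261, 323 and 290.0 on untreated arrays against 90.5, 135 and 169.7 (lowest, median, highest) in lung, a change of 1.27 ± 0.13 (SE; adjusted p = 2.55e-09). Parp1, the poly(ADP-ribose) polymerase that senses nicks, read 464 ± 26.1 (SD, n = 3) against 348 ± 31.5 (SD, n = 16). Its chosen probe set was at 0.50 (adjusted p = 0.000143) and its other 3 were at 1.00, 0.95 and 0.99, of which the first was called, so the calls of its probe sets differ and their direction does not.

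None of the 4 nucleotide excision repair genes was called, and the only gene below all lung arrays was one of them. Xpc, which recognises distorted DNA across the genome (Entrez gene 22591), read 111, 105 and 104 on untreated arrays against 229, 264 and 348 (lowest, median, highest) in lung. The change was -0.98 ± 0.12 (SE; adjusted p = 7.3e-08), just short of 2-fold. It passed 2-fold without normalization (-1.26), with an offset of 1 (-1.06), without untreated 1 (-1.01) and without the lung arrays that went against their sex label (-1.01). Ercc1, a subunit of the nuclease that cuts beside the lesion, was at -0.22 (adjusted p = 0.116). Ddb2, a sensor of ultraviolet damage, was at 0.26 (adjusted p = 0.0466) on its chosen probe set. The deposited mean of that set was 135 ± 12.6 (SD, n = 3) against 137 ± 18.2 (SD, n = 16). The change of Ddb2 ran from -0.02 to 0.42 over the settings, so the chosen set alone gave no settled direction. A second Ddb2 set was above lung, at 0.58 (limma adjusted p = 0.000178), and stayed below 2-fold. Xpa, which verifies the lesion, was at 0.52 (adjusted p = 0.00991) on its chosen probe set and at 1.24 on a second set that read 34 ± 4.95 (SD, n = 3) in untreated cells.

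**Figure D2:**
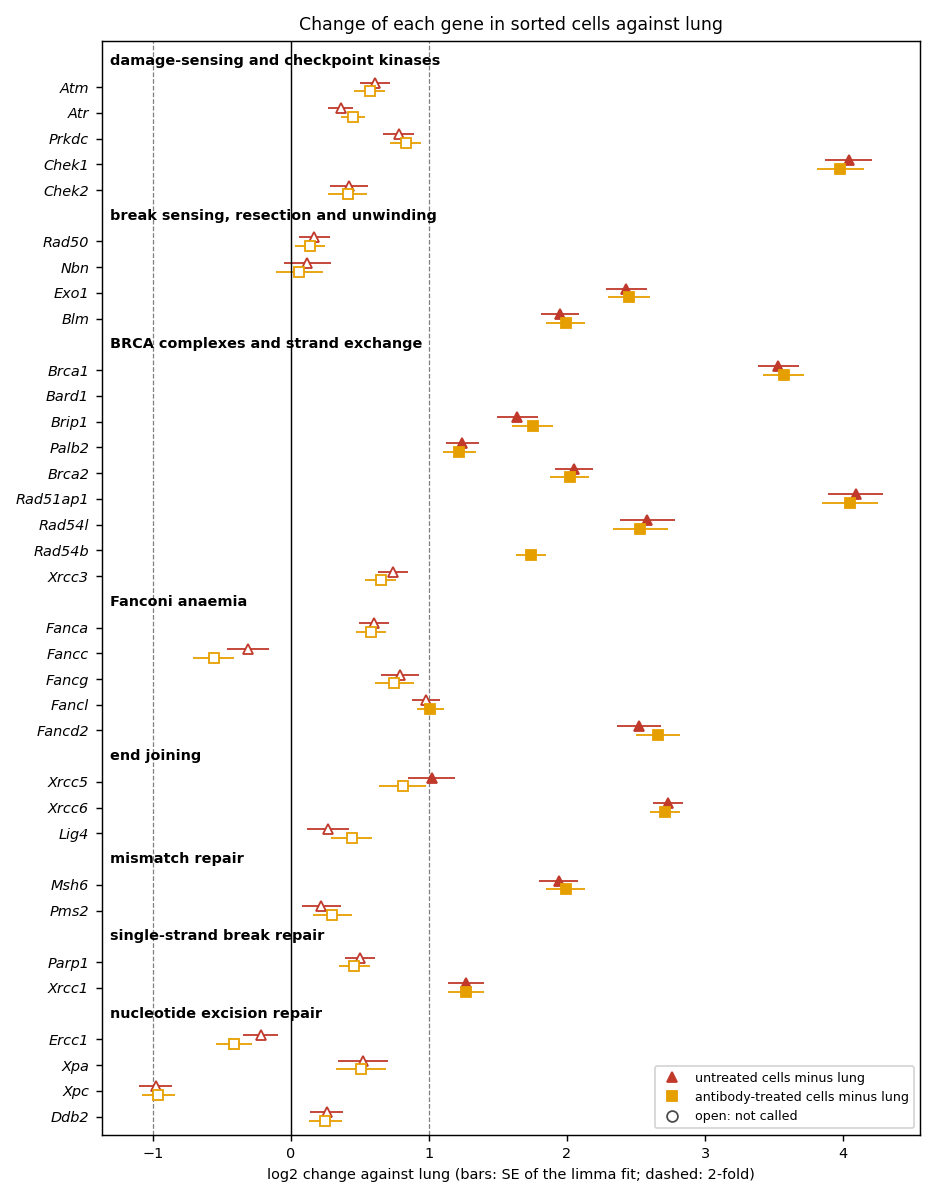
Log2 change of each gene in untreated cells (triangles) and antibody-treated cells (squares) against the mean of male and female lung, with bars of 1 SE from the limma fit, dashed lines at 2-fold and open symbols for genes not called. The largest changes are those of Rad51ap1 (4.09) and Chek1 (4.04) in untreated cells, and Xpc lies lowest (-0.98); Bard1 was not tested, nor was Rad54b in untreated cells.

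Over all probe sets of these genes, 54 were tested against lung in untreated cells, of which 24 were higher and 0 lower. Of all 32533 probe sets tested, 6554 were higher and 6390 lower. The 24 hold several sets of the same gene, as for Rad51ap1 and Chek1, so they are not separate genes. Of the 14 genes with several tested sets, 12 had the same call on all of them and 0 had opposite calls, and the exceptions were Parp1 and Xpa. In sign, 4 genes had tested sets on both sides of lung, namely Atm, Ercc1, Fancc and Pms2. For Atm and Pms2 sets on both sides had an adjusted p under 0.05, so these genes have no settled direction. For Ercc1 the other tested sets were at 0.13 (limma adjusted p = 0.319) and -0.40 (0.0288). For Fancc they were at 0.27 (limma adjusted p = 0.0376) and -0.15 (0.276). Ercc1 read 379.6, 524 and 646 (lowest, median, highest) in lung and Fancc 64.4, 88.5 and 134, and their cell arrays are given with the antibody comparison.

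Antibody-treated cells were compared with the same 16 lung arrays, so the result is not independent of the comparison above. Of 33 genes tested, 15 were higher, 0 were lower and 18 were not called, while 17.2% of the 15138 genes tested were higher and 23.9% lower. Chek1, Exo1, Blm, Brca1, Brip1, Rad51ap1, Rad54l and Rad54b passed the filter here only through the cell arrays. They could enter only as genes high in the cells, so the filter set part of this count. Without antibody 1, 2 or 3 the filter left 26 genes, of which 8, 8 and 7 were higher, and with the 33 genes kept 15, 15 and 14 were. There were 13 genes higher in both comparisons. Xrcc5 was called in untreated cells only (0.81 ± 0.17, SE, after antibody), and Fancl (1.01 ± 0.10, SE) and Rad54b (1.74 ± 0.11, SE) in antibody-treated cells only. Rad54b was not tested in untreated cells, Fancl was at 0.98 there, and the difference of these genes between the cell groups did not pass its own test, given below. Rad51ap1 was at 4.05, Chek1 at 3.98, Brca1 at 3.57 and Xpc at -0.96 after antibody. Fancc was at -0.56 (adjusted p = 0.00136).

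Genes of the same pathways outside the 36 were counted from lists written from general knowledge of the pathways. Over 8 lists of repair and checkpoint genes, 115 genes were tested in untreated cells, of which 46 were higher and 1 was lower, with a median change of 0.89. For this and the lists below, the shares over all 15197 genes tested were 17.8% higher and 23.8% lower, with a median of 0.01. None of the lists was split by whether its genes passed the filter through lung as well. In homologous recombination 11 of 29 were higher, led by the chromatin remodeller Hells (4.14), the helicase Recql4 (2.48) and Mre11a (2.39), the nuclease of the sensor complex whose partners Rad50 and Nbn were not called. In the Fanconi anaemia list 3 of 8 were higher, namely Ube2t (2.63), the enzyme that passes ubiquitin to Fancd2, Fanci (2.35), the partner of Fancd2, and Fancb (1.25). In end joining 4 of 9 were higher, among them the scaffold Aplf (1.49), the polymerase Polm (1.10) and Aptx (1.04). In checkpoint signalling 9 of 20 were higher, among them Cdc25c (3.46), a phosphatase that starts mitosis, Clspn (3.04), which brings Chek1 to Atr, and Topbp1 (2.28), an activator of Atr.

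Base excision repair had 7 of 16 genes higher, led by the uracil glycosylase Ung (3.17), the endonuclease Apex1 (3.10) and the flap nuclease Fen1 (2.83). In translesion synthesis and direct reversal 7 of 13 were higher, with the ubiquitin ligase Rad18 at 2.79, the polymerase Polh at 2.40 and the alkyl transferase Mgmt at 2.12. In mismatch repair 4 of 7 were higher, among them the ligase Lig1 (2.70), Rfc1 (1.5) and the sliding clamp Pcna (1.29), which also serve replication. Msh3 was the gene that was lower, at -1.77 ± 0.28 (SE; adjusted p = 3.84e-06), reading 17.9 ± 6.67 (SD, n = 3) in untreated cells against 122 ± 42.2 (SD, n = 16). Msh3 and Msh6, which both recognise mismatches, lay on opposite sides of lung. Nucleotide excision repair had 1 of 13 genes higher, Gtf2h4 (1.28), a subunit of the helicase complex TFIIH.

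Lists of cell division genes had larger median changes than the repair lists. Of 30 DNA replication genes 28 were higher, with a median of 2.80, and of 26 mitosis genes 26 were higher, with a median of 3.46. Examples were Uhrf1 (4.32), Tk1 (4.31) and Rrm2 (4.10) in replication and Birc5 (4.94), Cdk1 (4.31) and Kif20a (4.19) in mitosis. Any gene of these lists that passed the filter only through the cell arrays could enter only as high, and such genes were not counted apart. The E2F and retinoblastoma family went both ways, with 8 of 17 higher and 3 lower. The atypical E2F repressors E2f7 (2.77) and E2f8 (2.39) and the MuvB subunit Lin9 (2.31) were higher, and E2f2 (-2.04), E2f5 (-1.59) and E2f4 (-1.04) were lower.

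The p53 list, whose targets answer to DNA damage, also went both ways, with 9 of 23 higher and 4 lower. The death receptor gene Eda2r (3.92), the stress gene Gadd45a (2.21) and the Akt inhibitor gene Phlda3 (1.88) were higher. The pro-death gene Pmaip1 (-3.47), the junction and death gene Perp (-3.44) and the growth inhibitor gene Btg2 (-1.54) were lower.

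**Figure D3:**
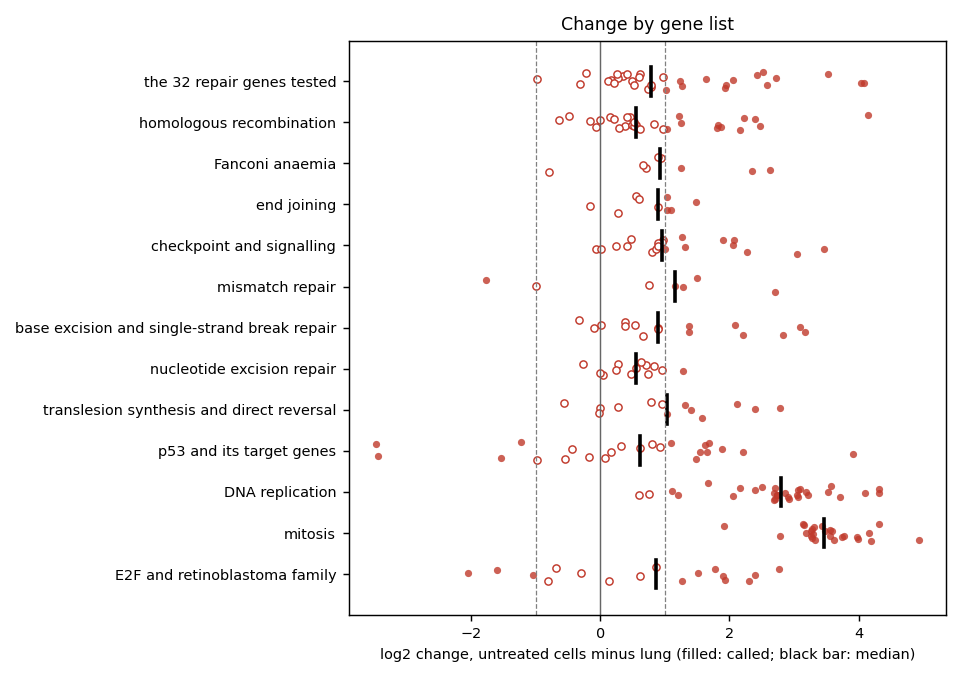
Log2 change in untreated cells against lung of every tested gene, for the 32 repair genes and 12 lists of other genes, with filled points for called genes, a black bar at the median and dashed lines at 2-fold. The medians are 0.78 for the 32 genes, 2.80 for DNA replication and 3.46 for mitosis, and the p53 and E2F lists hold called genes on both sides.

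Lung is a mixed tissue, so in these bulk samples fewer cells of a type and less RNA per cell cannot be told apart. Markers of lung cell types were summed by intensity on each array. Alveolar type 2 markers came to 27.2 to 82.1 in the cells and 23384 to 32612 in lung, club cell markers to 2.03 to 38.3 and 25839 to 33264, endothelial markers to 37.5 to 55.7 and 6295 to 10971, and leukocyte markers to 17 to 40.7 and 5385 to 8292. All measured markers of these types, 3, 3, 4 and 3 genes, were lower in untreated cells, and those of club cells, endothelium and leukocytes stayed under 40 on every cell array. Alveolar type 1 markers, at 1591 to 2060.5 against 17136 to 23416, had 3 of 4 lower, and ciliated cell markers, at 27.9 to 53.3 against 457 to 1282, 2 of 3. Macrophage markers, at 91.7 to 153 against 4938 to 12026, had 5 of 5 lower, T cell markers, at 37.6 to 62.8 against 313 to 583, 3 of 4, B cell markers, at 14.9 to 24.8 against 789 to 2405, 3 of 3, and red blood cell markers, at 7.01 to 18.3 against 1037 to 3051, 2 of 2. Fibroblast markers were present in both, at 6541 to 11459 against 12062 to 17128, with 1 of 5 higher and 2 lower. Smooth muscle markers came to 2966 to 5043 against 4398 to 8651, with 2 of 3 lower and under 40 on every cell array, so that Acta2 carried the sum in the cells. The part of this difference in cell types in the changes of the repair genes was not tested.

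Technical measures were compared between cell and lung arrays. The labelling control dap read 438 to 761 on cell arrays and at most 3.70 on lung arrays, so any effect of labelling cannot be told apart from that of the sample type. The 3′ over 5′ ratio of Gapdh probe sets, in log2, was -0.13 to 0.40 for cells and 0.22 to 1.02 for lung, and for Actb the same ranges were 0.22 to 1.21 and 0.28 to 0.90. The arrays lung male 3 and lung male 4 went against their sex label, and with lung male 2 they had the lowest correlation with the other lung arrays (0.969, 0.960 and 0.970, against 0.980 to 0.988). The count of repair genes higher in untreated cells was 14 without lung male 3 and 4, 13 without lung male 2 and 14 without all of them. Without normalization the median of all genes tested was -0.15 and that of the repair genes 0.51, and with median centring they were 0.12 and 0.78.

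Antibody-treated cells were then set against untreated cells, to ask whether exposure changed the sorted fraction. Among 33 repair genes tested on the 6 cell arrays, 0 passed limma's adjusted p under 0.05, where 0.0236% of the 12711 genes tested passed. At an unadjusted p under 0.05 there were also 0, against 0.74% of all genes. That share was itself below the share this threshold gives where no gene differs. Small p were thus scarce over all genes, for a cause that was not tested. The 0 does not show that exposure left the repair genes unchanged. The differences ran from -0.24 for Fancc to 0.17 for Lig4, with a median of -0.01, and 13 of 33 were above 0. For all 33 genes the 95% interval of the difference lay within 2-fold. The widest, that of Fancd2, ran from -0.46 to 0.74 around a difference of 0.14.

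Fancc had the smallest p and was the only one of the 33 whose arrays did not overlap, where 2.92% of all genes tested had arrays that did not overlap. It read 57.5, 53.8 and 49 on untreated arrays and 39.5, 47.5 and 42.6 on antibody-treated arrays. The antibody-treated arrays were lower by a small margin, with a difference of -0.24 ± 0.13 (SE), a 95% interval from -0.55 to 0.06, an unadjusted limma p of 0.103 and an adjusted p = 1. Ercc1 followed, with 344, 445 and 429.8 on untreated and 313, 340.3 and 395 on antibody-treated arrays, a difference of -0.18 ± 0.15 (SE; limma adjusted p = 1). Xrcc5 read 197, 303 and 313 on untreated and 199.9, 226 and 257 on antibody-treated arrays, a difference of -0.20 ± 0.19 (SE; limma adjusted p = 1). The arrays of both of these genes overlapped.

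The genes called against lung differed little between the cell groups. Chek1 read 407, 317 and 379.6 after antibody and had a difference of -0.05 with a 95% interval from -0.47 to 0.36. Rad51ap1 read 495, 324 and 494 (-0.03, from -0.52 to 0.46), and Xrcc6 read 728, 834 and 782 (-0.01, from -0.30 to 0.27). For Fancl the difference was 0.04 and for Rad54b 0.02. In the 8 lists of other repair and checkpoint genes 0 of 112 passed, with 1 at an unadjusted p under 0.05 and a median difference of -0.03. In the p53 list 0 of 21 passed (median 0.05), in DNA replication 0 of 30 (-0.03), in mitosis 0 of 26 (-0.07) and in the E2F and retinoblastoma family 0 of 17 (0.04).

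**Figure D4:**
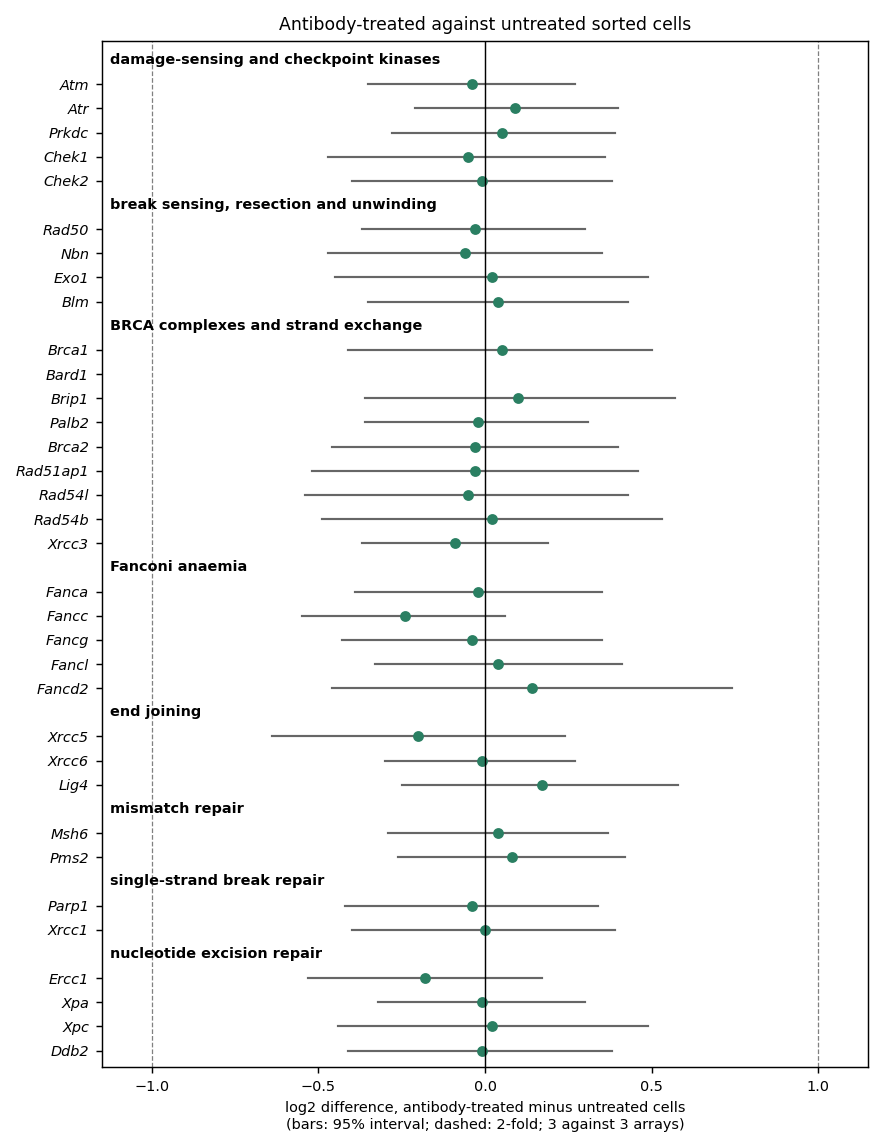
Log2 difference of antibody-treated minus untreated cells for the 33 genes tested, with 95% intervals from the limma fit of 3 against 3 arrays and dashed lines at 2-fold. All intervals lie inside 2-fold, the differences run from -0.24 (Fancc) to 0.17 (Lig4), and Bard1 was not tested.

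The deviation of each array from the mean of its group was examined for the repair genes. The median SD of the repair genes between arrays on the log2 scale was 0.17 in untreated cells, 0.20 in antibody-treated cells and 0.21 in lung, against 0.16, 0.19 and 0.20 for all genes tested. On untreated 3 all 14 genes that were higher than lung lay above the mean of their group, by a median of 0.23, while none of them did on untreated 1, where the median was -0.21. On antibody 2 the median was -0.25 and 2 of 14 were above. The 18 other repair genes were at 0.10, -0.10 and -0.10 on these arrays. On antibody 3 they deviated more than the 14, at 0.14 against 0.05. Since deviations within a group of 3 sum to 0, a high array fixes part of the lows on the others.

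Replication and mitosis genes had medians on the same side as the 14 repair genes on 6 of 6 cell arrays and 13 of 16 lung arrays, the others being lung male 6, lung male 8 and lung female 3. Their medians were 0.22 and 0.40 on untreated 3, -0.22 and -0.32 on untreated 1, -0.36 and -0.63 on antibody 2, and 0.20 and 0.42 on antibody 3. Among lung arrays, lung male 4 had the largest rise of these genes (0.40 and 0.79), with 0.25 for the 14 repair genes and -0.06 for the 18 others, and lung male 2 had -0.24, -0.35, -0.33 and 0.04 in the same order. Lung female 2 had all 14 repair genes above the mean, by a median of 0.19. These are deviations of arrays within a group over genes that share each array, and no test was made on them.

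**Figure D5:**
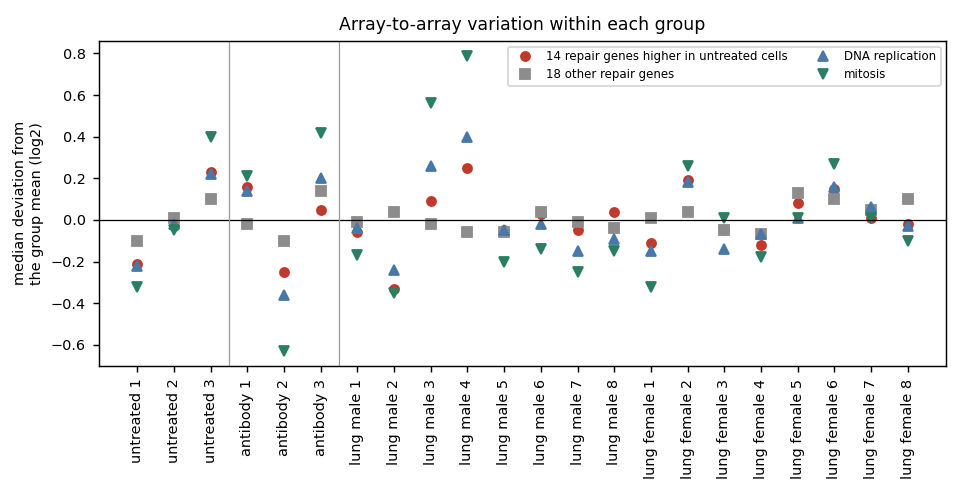
Median deviation from the group mean, in log2 units, on each of the 22 arrays, for the 14 repair genes higher in untreated cells (circles), the 18 other repair genes (squares), DNA replication genes (upward triangles) and mitosis genes (downward triangles). On untreated 3 the medians are 0.23, 0.10, 0.22 and 0.40, on antibody 2 they are -0.25, -0.10, -0.36 and -0.63, and on antibody 3 they are 0.05, 0.14, 0.20 and 0.42.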

How the data were processed

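The data are 22 Affymetrix arrays of mouse total RNA, 6 of sorted cells and 16 of lung, grouped by the labels. The deposited values are linear probe set intensities summarised with PLIER, per the submitters' processing notes, and the version, settings and scaling are not given in the sources used here. Mean intensity per array was 268.6 to 311.1, with medians of 39.3 to 40.6 for cells and 47.9 to 54.6 for lung. Arrays have no read depth, so precision is set by how many there are.

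Of 45101 probe sets, 64 controls were left out. The supplied probe table gave 34945 probe sets 1 gene symbol and 932 several, and 9160 had none there. Intensities were taken as log2(intensity + 16), quantile normalized, and filtered to genes that exceeded an array's 40th percentile in 3 or more of the arrays compared. Models were run in R 4.3.3 with limma 3.58.1, using a variance trend, two-sided tests and Benjamini-Hochberg adjustment over all genes tested. One fit of all 4 groups gave the contrasts of either cell group against lung, male and female weighted equally, and the antibody comparison used the 6 cell arrays. Because the 16 lung arrays set most of the shared variance, the SE against lung are largely those of lung.

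The 36 genes, the other lists, the tests and the alternatives were chosen with earlier results of these data known. Values per array are given for called genes with the largest or smallest change of their role, for Xpc, which was added after its values were seen, and for the genes with the smallest p after antibody. Of other lists, up to 3 genes called in each direction with the largest change are named. The alternatives were other normalizations, offsets of 1 and 64, other filters, other choices of probe set, no variance trend, other sets of arrays, the replicate number as a block and leaving out single arrays. Leaving out lung male 2, and leaving out cell arrays with the tested genes kept, were added after seeing the data. Overlap of arrays was judged on the normalized scale.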

Additional observations from a re-analysis of the deposited data

Results flagged for a closer look

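Within groups of 8 lung arrays, 7 of 68 combinations of gene and group had an array far from the others, meaning that its gap to the nearest array was large against the range of the group. Chance gives about 1 in 20. Of the 7, 5 were on lung male 2, on the normalized log2 scale. Rad50 read 8.52 there, above the other male arrays at 7.88 to 8.13. Nbn read 6.66, below 7.43 to 7.99, Xrcc5 6.5, below 7.15 to 7.64, Msh6 6.66, below 7.31 to 7.77, and Xpa 6.18, below 7.09 to 7.65. The other two were on female arrays. Brca1 read 4.69 on lung female 8, below 5.00 to 5.27, and Xpa read 7.12 on lung female 3, below 7.34 to 7.49. Of these genes, the call of Xrcc5 in untreated cells ended without lung male 2 (0.96, against 1.02 with it).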

How the results depend on the processing

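Across 20 settings the call of 25 of 32 repair genes in untreated cells and of 27 of 33 in antibody-treated cells was the same in every setting that tested them, and 0 changes reversed. The calls that moved were those of Xrcc5, Palb2, Brip1, Fancl, Fancg, Xrcc3 and Xpc in untreated cells, and of Fancl, Palb2, Brip1, Rad54b, Xrcc3 and Xpc after antibody. Those of Brip1 (1.64 in untreated cells and 1.75 after antibody) and Rad54b (1.74) ended only with an offset of 64, at 0.72, 0.78 and 0.69. The count of genes higher in untreated cells was 12 without normalization, 16 with an offset of 1 and 11 with an offset of 64, where genes near background in lung shrink by construction. The count of genes lower than lung was 1, Xpc, in untreated cells without normalization, with an offset of 1, without the lung arrays against their sex label, and without these and lung male 2. After antibody it was 1, again Xpc, without normalization and with an offset of 1. The cause was not tested. With every probe set as its own feature, 32533 probe sets were tested in untreated cells and 32422 after antibody. Of these, 6554 were higher and 6390 lower in untreated cells, and 6411 were higher and 6343 lower after antibody.

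Leaving out each cell array in turn, the count of genes higher ran from 7 to 15 in untreated cells and from 7 to 15 after antibody, and the count lower from 0 to 1 in both. With 2 arrays left, cells alone cannot meet the 3-array filter, so fewer genes were tested, and with the tested genes kept the counts were 13 to 15 and 14 to 15. Xpc made the count lower 1 without untreated 1 and without antibody 2. Over all genes in the antibody comparison, the number called was 3 as reported, 1 with an offset of 1, and 0 to 3 without single arrays, with 0 without untreated 3 and 1 without untreated 1. The number of repair genes called there was 0 in every setting run. With the replicate number as a block it was also 0, with 2 genes called over all. Correlations of same-numbered arrays were 0.066, -0.26 and 0.068, and those of differently numbered arrays ran from -0.264 to 0.26. They gave no sign that the numbers pair the samples. Because deviations in a group of 3 sum to 0, such correlations cannot exclude a pairing.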
